A study of Mus musculus with 6 samples.

Results

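The nuclear genes for the subunits of the mitochondrial respiratory chain and ATP synthase, and for factors named after them, were followed in cultured mouse astrocytes given an antibody to the water channel aquaporin-4. The genes were all rows of the deposited expression table whose symbol starts with Nduf, Sdh, Uqcr, Cox4, Cox5, Cox6, Cox7 or Atp5, after 2 pseudogene names (Atp5k-ps2 and Ndufab1-ps) were left out. This gave 91 of the 14147 genes listed. They comprised 37 genes named for complex I, 4 for complex II, 8 for complex III, 13 for complex IV and 15 for complex V, together with 12 assembly factors (Ndufaf and Sdhaf names) and the pair Cox7a2l and Atp5s, which were kept apart. The prefixes do not catch every nuclear subunit: Cox8a was looked at separately, and the 13 subunits encoded in mitochondrial DNA served as a comparison.

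The 6 RNA-seq libraries came from primary astrocytes of mice described as wild type, 3 given human AQP4-IgG and 3 given human Control-IgG, all collected at 24 h. Strain, age and IgG dose are not stated in the labels, and because the series title speaks of conditioned medium, how the IgG reached the cells is uncertain. AQP4-IgG is the autoantibody found in neuromyelitis optica, an inflammatory disease in which astrocytes are the antibody's target. Nothing in the labels says whether libraries of a group were separate cultures or animals, so every p-value below measures the scatter among these libraries, which may be technical.

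Complexes I to IV pass electrons from NADH and succinate to oxygen and, apart from complex II, pump protons across the inner mitochondrial membrane. Complex V, the ATP synthase, uses the returning protons to make ATP. Most subunits are encoded in the nucleus and imported, while complexes I, III, IV and V each also hold subunits made inside the mitochondrion, so both genomes have to supply each of these complexes. Astrocytes draw much of their energy from glycolysis but also respire and oxidise fatty acids.

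Levels are given in FPKM, that is, per length of exon and per mapped total. The length is that of all annotated exons of a gene together, so comparisons between genes also depend on the annotation. Most abundant below means highest in FPKM. Whole reads recovered from the FPKM values put the depth at 20.4 to 20.6 M reads per AQP4-IgG library and 17.9 to 20.3 M reads per Control-IgG library. All 10 astrocyte markers looked up were listed, with summed levels of 463 to 524 FPKM in AQP4-IgG libraries and 418 to 479 FPKM in Control-IgG libraries. All 8 microglia and macrophage markers were listed too, at 858 to 985 FPKM in AQP4-IgG libraries and 844 to 1086 FPKM in Control-IgG libraries, so transcripts of myeloid cells were present beside those of astrocytes. In such bulk RNA, fewer cells of a type and less RNA per cell cannot be told apart.

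The promoters of these genes are known for motifs of a few transcription factors: nuclear respiratory factor 1 (NRF1), the ETS factor GABP (also called NRF2), YY1 and the oestrogen-related receptors (ERR). RefSeq promoter windows (GRCm38.p6, 250 bases before to 50 bases after the start of transcription) were matched to 77 of the 91 genes, with 82 windows, and searched on both strands. The NRF1 motif (GCGC, then any base, then TGCGC) was present in 22 of the 82 windows (26.8%), against 4.60% of all 32851 windows and 10.1% of the 11866 windows of tested genes. The ETS core CCGGAAG was present in 20 windows (24.4%), against 8.86% of all windows and 17.6% of those of tested genes. For the YY1 core AAGATGGC the count was 11 windows (13.4%), against 2.75% of all windows and 4.42% of those of tested genes. The ERR element TCAAGGTCA was in 2 windows (2.44%), against 0.423% of all windows and 0.261% of those of tested genes. All 4 motifs thus had a higher share in these windows than in both comparison sets, a description for which no test was made. The set of all windows includes these windows, and that of tested genes includes most of them. For ERR the share rests on 2 windows, and genes with more than 1 window count more than once. By complex, the NRF1 motif was found in 8 of 35 windows of complex I, 6 of 17 of complex V, 4 of 11 of the assembly factors, 2 of 3 of complex II, 1 of 5 of complex III and 1 of 9 of complex IV.

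The following windows are of Ndufa1, the member that passed the test, Cox6a1, the most abundant member, Sdhd, a membrane anchor of complex II, and Atp5h, which had the smallest p in complex V. Sdhd and Atp5h did not pass the test. The windows of Cox6a1, Sdhd and Atp5h hold both NRF1 and ETS matches. They are not typical of the 82, of which 22 hold the NRF1 motif and 20 the ETS core. Each of the 4 windows shown is printed 5′ to 3′ on the gene's own strand, which is the minus strand in all 4. Capitals mark matches to any of the 4 motifs in either orientation, and no matches overlap in these windows.
Ndufa1 (chrX:37191189-37191488): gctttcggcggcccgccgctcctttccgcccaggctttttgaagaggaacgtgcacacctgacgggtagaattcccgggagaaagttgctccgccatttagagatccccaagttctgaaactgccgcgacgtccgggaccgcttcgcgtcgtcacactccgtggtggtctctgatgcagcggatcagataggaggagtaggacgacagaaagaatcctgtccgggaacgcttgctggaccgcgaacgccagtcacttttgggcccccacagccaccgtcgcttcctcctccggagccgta
Cox6a1 (chr5:115348909-115349208): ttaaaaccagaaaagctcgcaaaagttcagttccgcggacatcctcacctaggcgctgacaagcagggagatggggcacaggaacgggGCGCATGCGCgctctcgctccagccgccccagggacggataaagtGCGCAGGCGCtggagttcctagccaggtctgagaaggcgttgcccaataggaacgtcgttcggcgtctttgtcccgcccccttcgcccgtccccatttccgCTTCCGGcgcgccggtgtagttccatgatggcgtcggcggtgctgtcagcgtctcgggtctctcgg
Sdhd (chr9:50603800-50604099): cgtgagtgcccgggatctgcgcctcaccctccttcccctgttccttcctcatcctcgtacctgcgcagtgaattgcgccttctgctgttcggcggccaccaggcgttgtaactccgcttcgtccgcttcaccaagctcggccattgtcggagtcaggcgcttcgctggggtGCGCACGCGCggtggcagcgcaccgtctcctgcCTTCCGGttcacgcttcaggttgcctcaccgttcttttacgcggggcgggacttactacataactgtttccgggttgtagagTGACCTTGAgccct
Atp5h (chr11:115419870-115420169): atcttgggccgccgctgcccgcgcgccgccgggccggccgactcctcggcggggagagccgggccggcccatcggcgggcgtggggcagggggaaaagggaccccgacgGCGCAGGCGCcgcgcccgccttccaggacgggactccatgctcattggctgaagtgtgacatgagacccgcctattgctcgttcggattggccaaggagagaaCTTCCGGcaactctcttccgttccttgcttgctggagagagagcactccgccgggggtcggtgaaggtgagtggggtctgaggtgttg
The Cox6a1 window holds a pair of NRF1 matches, whose first bases lie 162 and 117 bases before the start, and an ETS match 16 bases before it. The Sdhd window holds an NRF1 match 79 bases before the start, an ETS match 46 bases before it and an ERR match 36 bases after it. In the Atp5h window an NRF1 match lies 141 bases and an ETS match 38 bases before the start. The Ndufa1 window holds none of the 4 motifs, which says only that these letters are not in this window. Placed by the RefSeq start, the window lies wholly upstream of the gene's deposited coordinates, which end at chrX:37191163.

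The genes were expressed strongly. Over the 6 libraries the median member had a mean level of 32.5 FPKM, against 7.58 FPKM for all 12334 genes tested, and 88 of the 91 reached the mean of 1 FPKM required for testing. The highest in FPKM was Cox6a1, a small membrane subunit of complex IV, with 249, 230.1 and 252 FPKM in AQP4-IgG libraries and 266, 242 and 253 FPKM in Control-IgG libraries. Atp5b, the catalytic beta subunit of ATP synthase, came next with 210.0, 200.5 and 200.4 FPKM in AQP4-IgG libraries and 218, 199.9 and 208 FPKM in Control-IgG libraries. Its partner in the F1 head, the alpha subunit Atp5a1, followed at 174 ± 5.93 FPKM with AQP4-IgG, against 171 ± 7.55 FPKM with Control-IgG (mean ± SD, n = 3 libraries per group, as throughout). These leading genes overlapped between the groups. Their order holds in FPKM only and depends on the annotated exon length. Atp5b had 15172 to 18802 recovered reads per library over 4237 bases of exon, against 3046 to 3805 over 702 bases for Cox6a1.

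**Figure D1:**
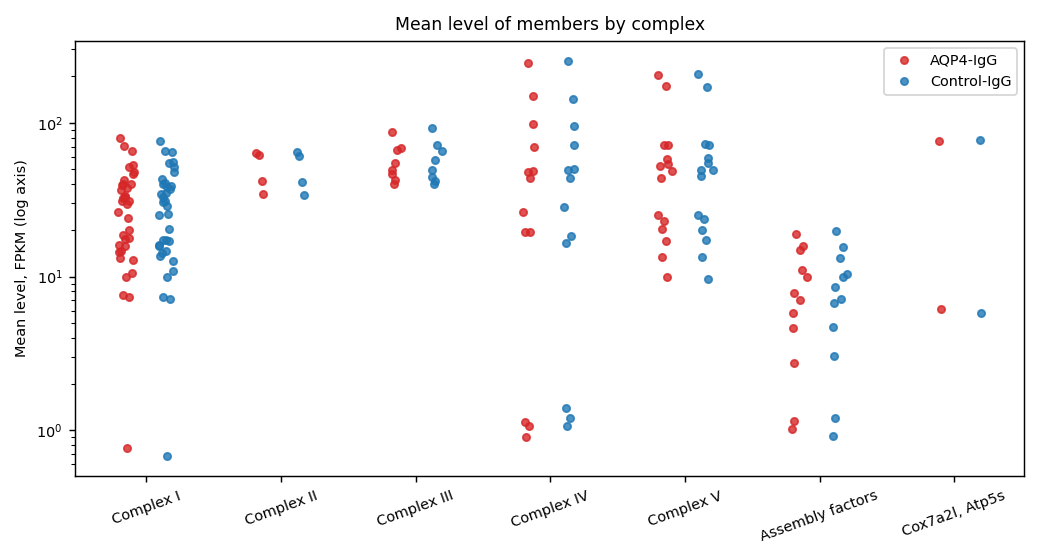
Mean level of 90 of the 91 genes in FPKM (log axis) in AQP4-IgG libraries (red) and Control-IgG libraries (blue), by complex, 1 point per gene and group. The clouds of the groups lie at the same height in each complex, and a few genes near 1 FPKM stand below the rest in complexes I and IV and among the assembly factors.

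The 3 genes below the limit for testing were Ndufb2, Cox6a2 and Sdhaf3. Ndufb2, an accessory subunit of complex I, had the lowest level, 0.765 ± 0.140 FPKM with AQP4-IgG, against 0.677 ± 0.0508 FPKM with Control-IgG, its annotation covers 5628 bases of exon, and its locus overlaps Braf and other genes. Cox6a2, the heart and muscle form of Cox6a1, stood at 0.909 ± 0.0873 FPKM with AQP4-IgG, against 1.07 ± 0.288 FPKM with Control-IgG. Sdhaf3, an assembly factor of complex II, stood at 1.02 ± 0.0962 FPKM with AQP4-IgG, against 0.914 ± 0.104 FPKM with Control-IgG.

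Between the groups the transcripts of the respiratory chain differed little. Of the 88 members tested, 0 were higher and 1, Ndufa1, was lower with AQP4-IgG in limma at an adjusted p under 0.05, while 87 did not pass. Over all genes tested, 1.46% were called higher and 0.632% lower. At an unadjusted p under 0.05 there were 6 members, or 6.82%, against 13.3% of all genes tested. The alternative fit by limma-voom on recovered reads covered 77 of the members and called 0 of them in either direction, with 5 at an unadjusted p under 0.05. The log2 fold changes, taken on log2(FPKM + 1), were positive in 43 members and negative in 45, with a median of -0.0045 (quartiles -0.042 and 0.036) and a range of -0.25 to 0.24. Their median lay between -0.027 and 0.0072 with a library left out, so its sign was not stable. Over all genes tested the median was 2.3e-05 (quartiles -0.056 and 0.061) and the range -1.72 to 2.18.

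The size of change that the data leave room for on log2(FPKM + 1) can be read from the 95% intervals. At low levels, and most near 1 FPKM, the added 1 makes these intervals understate changes in FPKM itself. This touches low members such as Cox4i2 (mean 1.13 FPKM over all libraries), Sdhaf1 (1.18 FPKM) and Ndufaf2 (2.89 FPKM), all counted below as within 1.25-fold. For 80 of the 88 members (90.9%) the interval of the fold change lay wholly within 1.25-fold in either direction, as it did for 80.2% of all genes tested. The exceptions were Ndufa1, Ndufb9, Ndufs6, Cox6b2, Cox7a1, Ndufaf4, Ndufaf8 and Sdhaf4. Within 1.5-fold lay 87 of the 88 (98.9%, against 94.8% of all genes), and the exception was Cox7a1. The margin on either side of the estimate had a median of 0.123 log2 units among members and 0.148 among all genes. In 3 members every AQP4-IgG library lay above every Control-IgG library (3.41%, against 10.4% of all genes), namely Ndufb6, Cox6b2 and Ndufaf8. The opposite held for 10 members (11.4%, against 8.58% of all genes): Ndufa1, Ndufa2, Ndufa8, Ndufb10, Uqcrq, Atp5f1, Ndufaf1, Ndufaf4, Ndufaf5 and Ndufaf7.

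**Figure D2:**
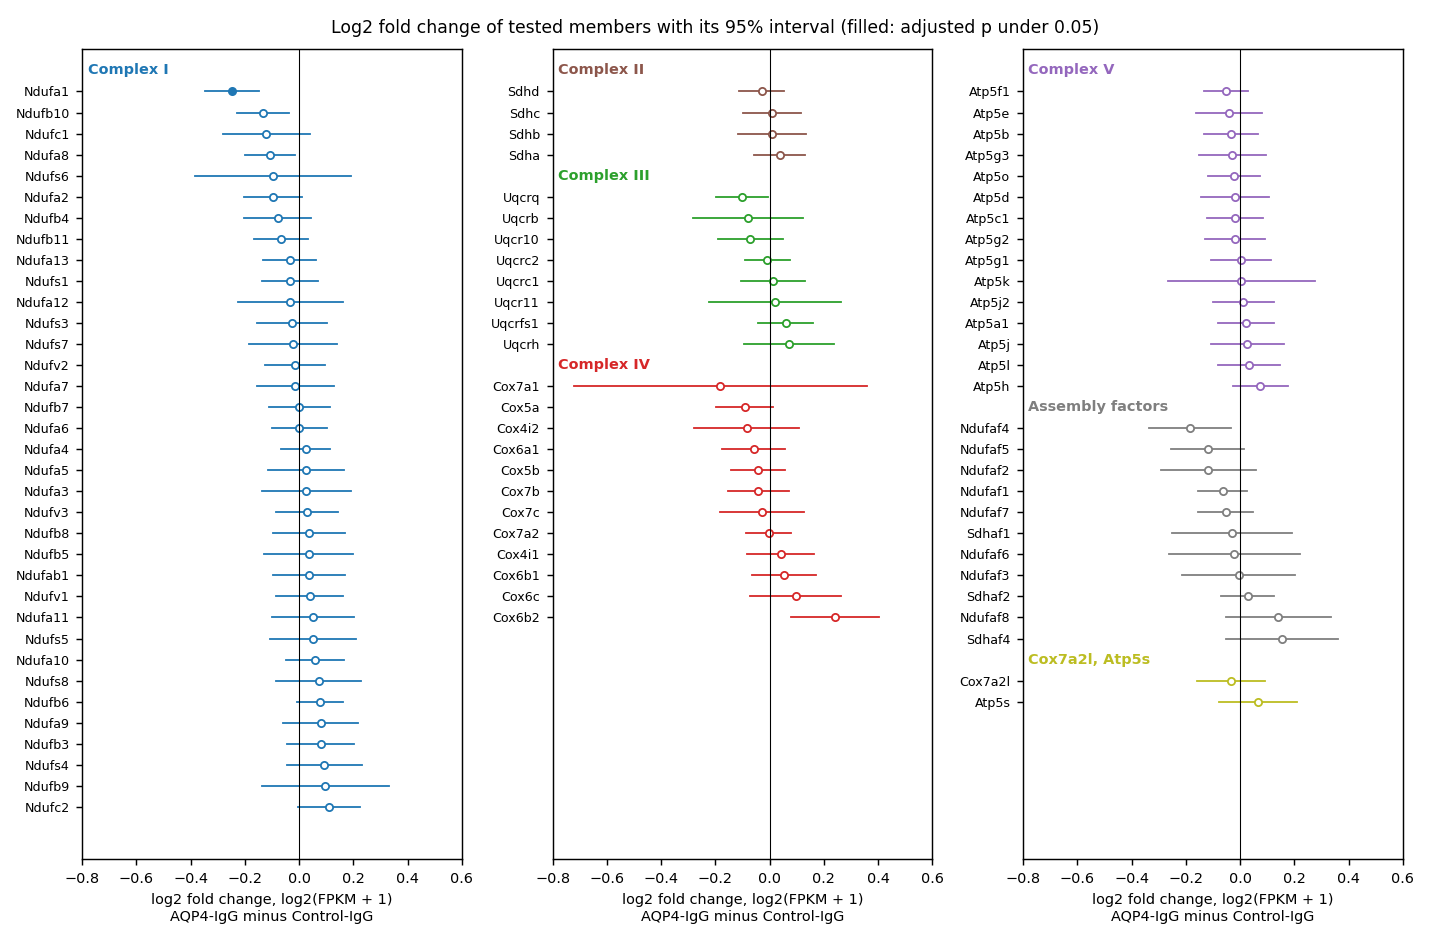
Log2 fold change on log2(FPKM + 1), AQP4-IgG minus Control-IgG, of 87 of the 88 tested genes by complex, with its 95% interval from limma. The filled point, Ndufa1 at -0.25, is the gene with an adjusted p under 0.05, and open points are those that did not pass.

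Complex I takes electrons from NADH. Its core subunits do the electron transfer and proton pumping, and the accessory subunits surround them. The member that fell was accessory: Ndufa1, a small membrane-arm subunit encoded on the X chromosome (ENSMUSG00000016427, chrX:37187588-37191163, minus strand). It had 30.7, 30.1 and 32.2 FPKM in AQP4-IgG libraries 1 to 3, against 35.5, 37.8 and 37.6 FPKM in Control-IgG libraries 1 to 3. All 3 AQP4-IgG libraries were lower than all 3 Control-IgG libraries, by more than the scatter within either group. The mean was 31.0 ± 1.08 FPKM with AQP4-IgG, against 37.0 ± 1.25 FPKM with Control-IgG, a ratio of 0.838 and a log2 fold change of -0.25 (SE 0.044, 95% interval -0.35 to -0.15, limma adjusted p = 0.0293).

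Ndufa1 is short, with 419 bases of exon, so its values rest on 264, 257 and 278 recovered reads in AQP4-IgG libraries and 303, 284 and 316 in Control-IgG libraries. None of its 50-base stretches occurs in another gene's transcripts (0%), and no other annotated gene overlaps it. The call ended in limma without the trend (adjusted p = 0.0735), in limma-voom on recovered reads (adjusted p = 0.184), and when AQP4-IgG 1 or 2 or Control-IgG 2 or 3 was left out (adjusted p = 0.117 to 0.144), with log2 fold changes between -0.28 and -0.23 in all 15 alternative fits. In the authors' deposited table its log2 fold change is -0.28 with an adjusted p of 0.272, and 0 of the 91 genes have an adjusted p under 0.05 there, against 411 of the 14147 rows.

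The other members of complex I that leaned the same way did not pass. Ndufb10, an accessory subunit of the membrane arm (chr17:24722060-24724478, minus strand), had 39.6, 38.4 and 39.5 FPKM with AQP4-IgG, against 44.3, 41.2 and 43.8 FPKM with Control-IgG (a log2 fold change of -0.13, limma adjusted p = 0.184). Ndufa8, which lies on the intermembrane side, had 49.4, 45.9 and 47.3 FPKM with AQP4-IgG, against 51.8, 50.4 and 51.8 FPKM with Control-IgG (a log2 fold change of -0.11, limma adjusted p = 0.287). In both the groups were apart, but their p-values did not survive adjustment over all genes; both were chosen here after their values were seen. At the other end stood Ndufc2, an accessory subunit of the membrane arm, with 72.4, 67.2 and 71.2 FPKM with AQP4-IgG, against 64.8, 61.6 and 68.9 FPKM with Control-IgG (a log2 fold change of 0.11, limma adjusted p = 0.409). Its groups overlapped. Ndufb6, the most abundant subunit of complex I and also accessory, averaged 79.9 ± 2.26 FPKM with AQP4-IgG, against 75.8 ± 0.724 FPKM with Control-IgG (a log2 fold change of 0.08, limma adjusted p = 0.445).

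Over complex I, 21 of the 36 tested log2 fold changes were positive and 15 negative, with a median of 0.021, which turned to -0.017 without Control-IgG 2. The 29 tested accessory subunits spanned -0.25 to 0.11 around 0.025. Ndufs1, the large core subunit with several iron-sulphur clusters, had 10.6 ± 0.101 FPKM with AQP4-IgG, against 10.8 ± 0.330 FPKM with Control-IgG. Its annotated exons cover 8086 bases, over which FPKM spreads the reads. Ndufv1, the flavin subunit that takes up the electrons of NADH, had 29.5 ± 1.66 FPKM with AQP4-IgG, against 28.7 ± 1.33 FPKM with Control-IgG. Ndufa4, counted here by its name although it is now known as a subunit of complex IV, had 66.0 ± 0.877 FPKM with AQP4-IgG, against 64.9 ± 2.28 FPKM with Control-IgG (a log2 fold change of 0.02, limma adjusted p = 0.888). Its relative Ndufa4l2 was not among the genes listed. Summed over complex I, AQP4-IgG libraries held 1155 ± 34.0 FPKM and Control-IgG libraries 1158 ± 32.4 FPKM.

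Complex II, succinate dehydrogenase, also works in the citric acid cycle and is encoded wholly in the nucleus. All 4 subunits overlapped between groups, with log2 fold changes of -0.030 to 0.037. Sdha, the flavoprotein that oxidises succinate (chr13:74322254-74350280, minus strand), had 64.7, 59.9 and 61.9 FPKM with AQP4-IgG, against 60.9, 59.2 and 61.5 FPKM with Control-IgG. Sdhb, the iron-sulphur subunit, averaged 34.3 ± 1.82 FPKM with AQP4-IgG, against 34.1 ± 1.87 FPKM with Control-IgG. The membrane anchors were Sdhc, at 41.7 ± 1.34 FPKM with AQP4-IgG, against 41.5 ± 2.00 FPKM with Control-IgG, and Sdhd, at 63.2 ± 1.32 FPKM with AQP4-IgG, against 64.5 ± 1.11 FPKM with Control-IgG. The limma adjusted p-values of the 4 lay between 0.81 and 0.975, and their 95% intervals between -0.12 and 0.13.

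Complex III hands electrons from ubiquinol to cytochrome c. Of its 8 genes 4 had positive and 4 negative log2 fold changes, with a median of 0.0017 (-0.029 to 0.019 with a library left out). The core proteins Uqcrc1 and Uqcrc2, which form its matrix part, averaged 40.0 ± 1.72 and 49.4 ± 0.173 FPKM with AQP4-IgG, against 39.7 ± 2.21 and 49.6 ± 1.23 FPKM with Control-IgG. Uqcrfs1, the Rieske iron-sulphur protein that carries the electron, averaged 68.2 ± 1.22 FPKM with AQP4-IgG, against 65.5 ± 3.28 FPKM with Control-IgG (a log2 fold change of 0.06). The groups were apart for Uqcrq alone, a small accessory subunit, with 67.9, 65.4 and 66.3 FPKM with AQP4-IgG, against 75.1, 69.5 and 70.1 FPKM with Control-IgG (a log2 fold change of -0.10, limma adjusted p = 0.337). The most abundant, the small subunit Uqcr10, averaged 87.7 ± 5.93 FPKM with AQP4-IgG, against 92.1 ± 2.17 FPKM with Control-IgG, and the hinge protein Uqcrh had the highest log2 fold change, 0.07 (limma adjusted p = 0.777).

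Complex IV, cytochrome c oxidase, reduces oxygen, and several of its nuclear subunits exist as isoforms with tissue preferences. In each isoform pair the widely expressed form dominated in both groups. Cox4i1 averaged 98.6 ± 2.23 FPKM with AQP4-IgG, against 96.0 ± 7.06 FPKM with Control-IgG, whereas Cox4i2, the form best known from lung and from oxygen sensing, averaged 1.07 ± 0.152 FPKM with AQP4-IgG, against 1.19 ± 0.0666 FPKM with Control-IgG. Cox7a2 averaged 43.7 ± 0.487 FPKM with AQP4-IgG, against 43.8 ± 0.964 FPKM with Control-IgG. Its muscle counterpart Cox7a1 averaged 1.13 ± 0.563 FPKM with AQP4-IgG, against 1.40 ± 0.565 FPKM with Control-IgG, values that rest on 7 to 22 reads per library and leave the widest interval of any tested member (log2 fold change -0.18, 95% interval -0.72 to 0.36).

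The subunit 6b pair was the one with an appreciable second form. Cox6b1, the somatic form, averaged 149 ± 7.43 FPKM with AQP4-IgG, against 143 ± 7.32 FPKM with Control-IgG. Cox6b2, known as the testis form (chr7:4751792-4753094, minus strand), had 18.7, 18.6 and 21.4 FPKM with AQP4-IgG, against 17.2, 14.96 and 17.2 FPKM with Control-IgG. All 3 AQP4-IgG libraries were above all 3 Control-IgG libraries, and its ratio of 1.19 and log2 fold change of 0.24 (95% interval 0.08 to 0.40) were the highest among the tested members. It did not pass (unadjusted p = 0.00891, limma adjusted p = 0.162), but did pass when replicate numbers entered the limma fit as a block (adjusted p = 0.0388). None of the 50-base stretches of either gene occurs elsewhere. Cox5a, a matrix-side subunit, averaged 26.5 ± 0.410 FPKM with AQP4-IgG, against 28.3 ± 1.37 FPKM with Control-IgG (a log2 fold change of -0.09, limma adjusted p = 0.454). Over complex IV, 4 log2 fold changes were positive and 8 negative, with a median of -0.035, which turned to 0.0037 without Control-IgG 3.

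**Figure D3:**
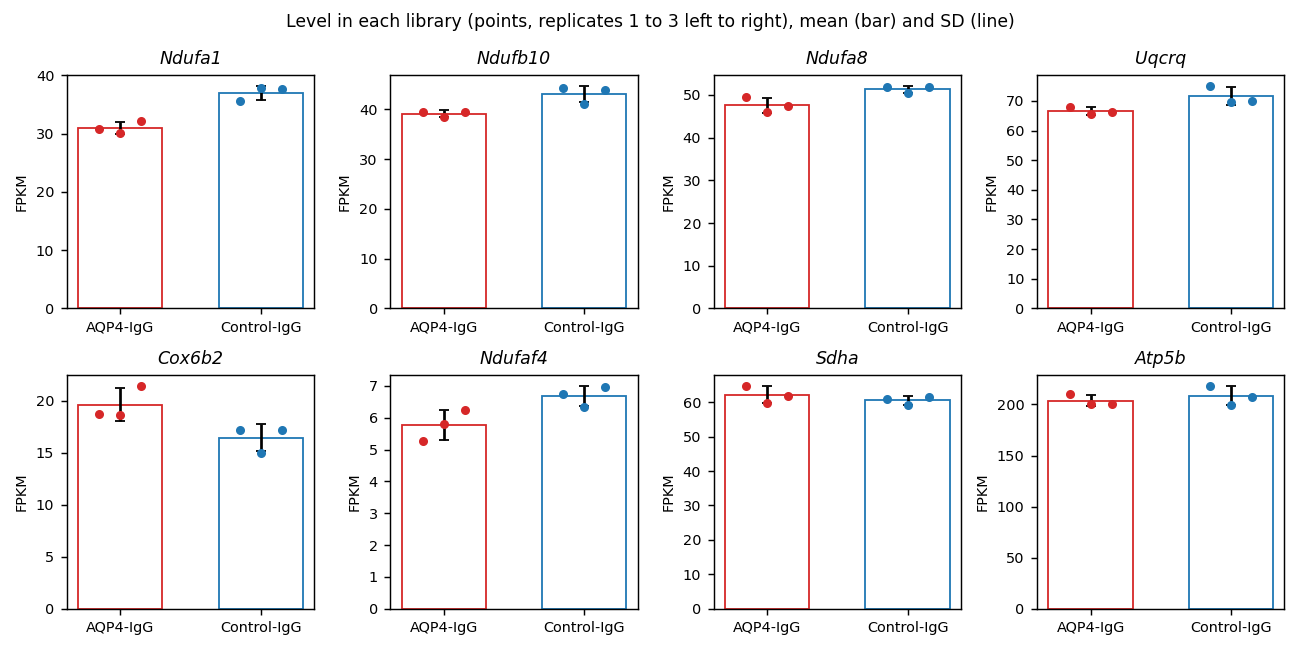
Level in FPKM of 8 genes in each library (points), with the group mean (bar from 0) and SD (line), AQP4-IgG left and Control-IgG right. The points of the groups do not overlap in Ndufa1, Ndufb10, Ndufa8, Uqcrq, Cox6b2 and Ndufaf4 and overlap in Sdha and Atp5b. Ndufa1 is the one with an adjusted p under 0.05.

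Complex V varied little. The log2 fold changes of its 15 genes all lay between -0.050 and 0.075, with a median of -0.018 (-0.044 to 0.0043 with a library left out). Of these genes 0 had an unadjusted p under 0.05 in limma, against 13.3% of all genes tested. The extremes were both in the peripheral stalk, which holds the catalytic head still. Subunit d, Atp5h, had 54.4, 50.5 and 51.5 FPKM with AQP4-IgG, against 50.2, 47.6 and 50.6 FPKM with Control-IgG, and its groups overlapped (log2 fold change 0.07, limma adjusted p = 0.558). Subunit b, Atp5f1, had 44.4, 43.4 and 43.2 FPKM with AQP4-IgG, against 45.7, 45.2 and 44.9 FPKM with Control-IgG, and its groups did not overlap (log2 fold change -0.05, limma adjusted p = 0.648).

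The proton-carrying c-ring is built from 1 mature protein made by 3 genes. In both groups Atp5g3 gave the highest level, 58.1 ± 4.26 FPKM with AQP4-IgG, against 59.1 ± 1.12 FPKM with Control-IgG. Atp5g2 averaged 48.9 ± 1.53 FPKM with AQP4-IgG, against 49.6 ± 2.69 FPKM with Control-IgG, and Atp5g1 averaged 13.4 ± 0.709 FPKM with AQP4-IgG, against 13.4 ± 0.133 FPKM with Control-IgG. Copies elsewhere in the genome make some of these levels uncertain: 38.3% of the 50-base stretches of Atp5g2, 36.9% of those of Atp5h and 22.5% of those of Atp5f1 recur in other transcripts, chiefly of processed pseudogenes. Among all 91 genes, 40 shared at least 1 stretch and 13 shared 20% or more, up to 68.5% in Atp5l. Another annotated gene overlaps 42 of them, among them Ndufb6, Ndufc2, Cox4i1 and Atp5b. Some of these neighbours lie on the same strand, as for Ndufc2 and Atp5b, and some on the opposite strand, as for Ndufb6. Reads of such neighbours may be mixed, and whether reads were counted by strand is not stated.

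The assembly factors build the complexes but are not part of them. Their levels were lower than those of the subunits, with a median of 7.66 FPKM over the 12 genes against 39.4 FPKM for the 77 subunits. Of the 11 tested, 8 had negative and 3 positive log2 fold changes, with a median of -0.031. The median turned to 0.028 when a mean of 10 FPKM was required and to 0.0070 without AQP4-IgG 1. Of the 11, 0 passed in limma, and 0 of the 9 fitted passed in limma-voom. At an unadjusted p under 0.05 in limma there was 1 (9.09%, against 13.3% of all genes tested). The 1 with the small p was Ndufaf4, which acts in the assembly of complex I, with 5.27, 5.82 and 6.23 FPKM with AQP4-IgG, against 6.75, 6.35 and 6.96 FPKM with Control-IgG (a log2 fold change of -0.18, limma adjusted p = 0.261). The groups were apart, though by a narrow margin. Ndufaf1, a factor for the membrane arm and the most abundant of them, averaged 18.9 ± 0.357 FPKM with AQP4-IgG, against 19.8 ± 0.285 FPKM with Control-IgG (a log2 fold change of -0.06). Sdhaf4, which helps the maturation of Sdha, averaged 14.9 ± 1.74 FPKM with AQP4-IgG, against 13.3 ± 1.17 FPKM with Control-IgG (a log2 fold change of 0.15, limma adjusted p = 0.557). Of the pair kept apart, Cox7a2l, which joins complexes III and IV into supercomplexes, averaged 75.8 ± 3.99 FPKM with AQP4-IgG, against 77.6 ± 4.38 FPKM with Control-IgG.

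The differences among libraries of 1 group were as large as those between groups. Summed over all 91 genes, AQP4-IgG libraries 1 to 3 held 3751, 3542 and 3658 FPKM, and Control-IgG libraries 1 to 3 held 3760.1, 3556 and 3699 FPKM. Library 1 was the highest and library 2 the lowest of each group. As medians over the tested members on log2(FPKM + 1), relative to the Control-IgG mean, AQP4-IgG libraries 1 to 3 stood at 0.030, -0.035 and -0.0078, and Control-IgG libraries 1 to 3 at 0.027, -0.042 and 0.014. Complex III in AQP4-IgG 2 had the lowest value of any complex, -0.10. Whether same-numbered libraries were handled together is not stated in the labels.

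**Figure D4:**
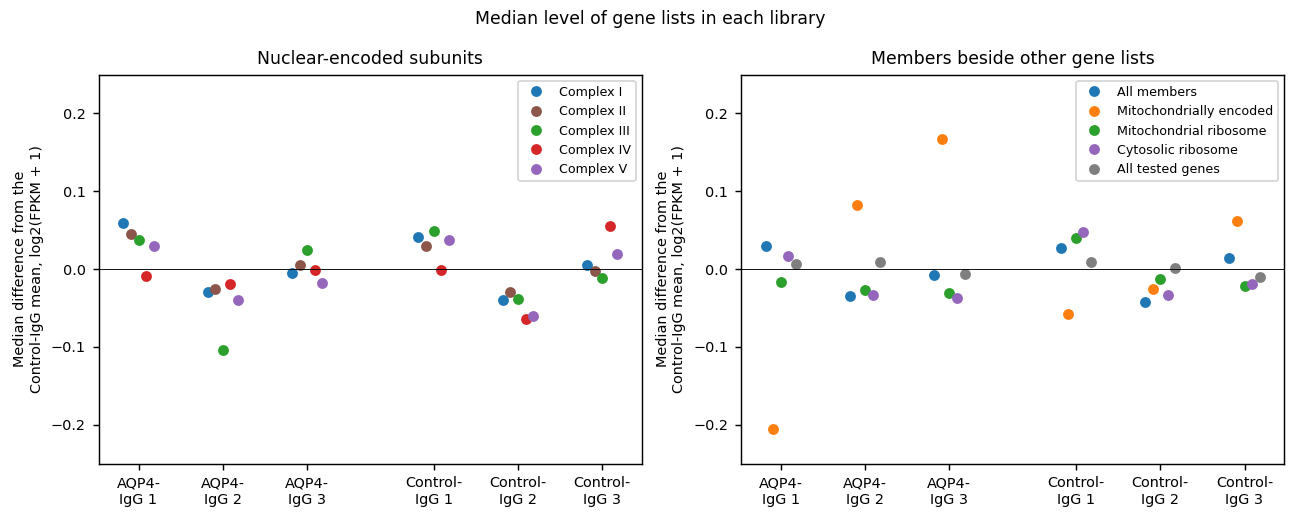
Median difference of gene lists from the Control-IgG mean on log2(FPKM + 1) in each library, AQP4-IgG libraries left and Control-IgG libraries right. Left, complexes I to V lie between -0.10 and 0.06. Right, all tested members are set beside subunits encoded in mitochondrial DNA, which span -0.21 to 0.17 within the AQP4-IgG group, both kinds of ribosomal protein genes and all tested genes.

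The subunits encoded in mitochondrial DNA scattered more. None of the 13 passed in limma or limma-voom (0 also at an unadjusted p under 0.05), and their median per library was -0.21, 0.083 and 0.17 in AQP4-IgG 1 to 3 and -0.058, -0.025 and 0.062 in Control-IgG 1 to 3. AQP4-IgG 1, the highest AQP4-IgG library for the nuclear subunits, was thus the lowest for the mitochondrial ones. The most abundant of them, mt-Co1, the catalytic subunit of complex IV, averaged 7315 ± 561 FPKM with AQP4-IgG, against 7145 ± 402 FPKM with Control-IgG. By contrast, mt-Co2, mt-Co3, mt-Atp6, mt-Atp8, mt-Nd3 and mt-Nd4l averaged between 3.75 and 42.6 FPKM with AQP4-IgG and between 3.44 and 32.2 FPKM with Control-IgG, and mt-Co3 had 18.8, 23.1 and 85.9 FPKM with AQP4-IgG, against 24.4, 19.4 and 22.3 FPKM with Control-IgG. How reads from near-identical nuclear copies of mitochondrial DNA were assigned is not given in the sources used here.

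In other genes of energy metabolism and translation, 0 tested genes of the 8 lists compared passed in limma in either direction. In limma-voom 0 passed either, among fewer genes: it fitted 71 mitochondrial and 79 cytosolic ribosomal genes, 18 of the citric acid cycle, 17 of glycolysis, 32 other assembly factors, 4 of Cox8a and the carriers, 12 regulators and 13 mitochondrially encoded subunits. The median log2 fold change was -0.018 for 77 mitochondrial ribosomal proteins, -0.026 for 85 cytosolic ribosomal proteins, -0.037 for 18 genes of the citric acid cycle and pyruvate dehydrogenase, 0.016 for 18 of glycolysis, -0.012 for 33 other assembly factors and -0.042 for Cox8a with 4 carriers. At an unadjusted p under 0.05 in limma there were 3 mitochondrial and 6 cytosolic ribosomal genes, 3 of glycolysis and 4 other assembly factors. These were 3.90%, 7.06%, 16.7% and 12.1% of their lists, against 13.3% of all genes tested. In the remaining pair of these lists there were 0. Cox8a, the subunit of complex IV that the prefixes miss, averaged 279 ± 8.13 FPKM with AQP4-IgG, against 280.3 ± 16.5 FPKM with Control-IgG (a log2 fold change of -0.0043). Closest to the threshold was Cox14, an assembly factor of complex IV named here after its values were seen, at 44.0 ± 0.543 FPKM with AQP4-IgG, against 49.2 ± 0.987 FPKM with Control-IgG (a log2 fold change of -0.16, limma adjusted p = 0.0719).

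**Figure D5:**
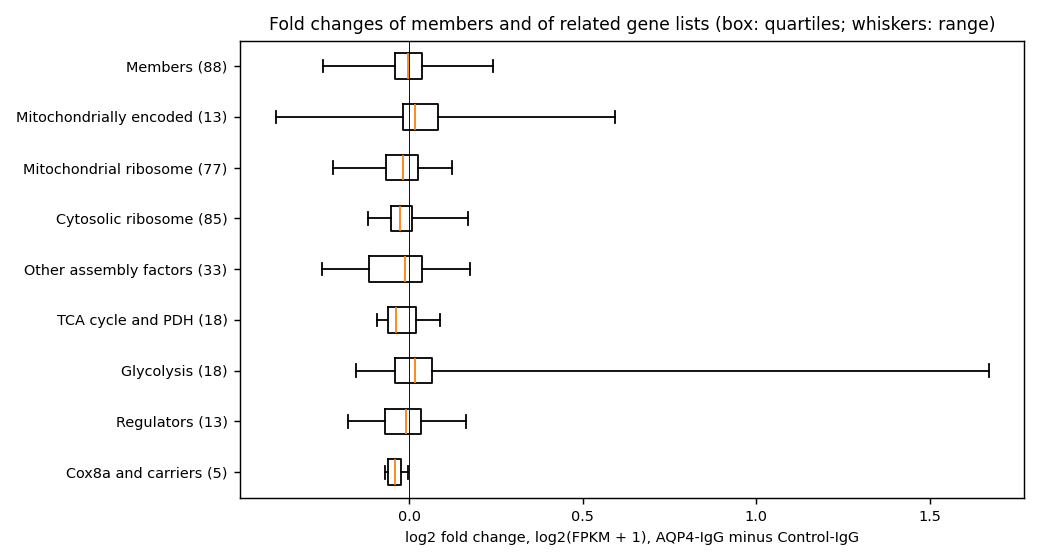
Log2 fold changes on log2(FPKM + 1), AQP4-IgG minus Control-IgG, of the 88 tested members and of 8 related gene lists, with the number of genes tested in brackets. Boxes span the quartiles with the median as a line, and whiskers the whole range. All medians lie between -0.042 and 0.018, and the far whisker of glycolysis is Gapdh, at 4.64, 28.6 and 5.53 FPKM with AQP4-IgG, against 1.78, 2.90 and 2.11 FPKM with Control-IgG. Gapdh did not pass (limma adjusted p = 0.448). Its level was far below that of Pgk1 (235 FPKM with AQP4-IgG, 243 FPKM with Control-IgG), and the reason was not tested.

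Transcripts of the factors whose motifs were searched, and of other regulators, did not pass the test. Of 13 tested regulators of mitochondrial genes, with a median log2 fold change of -0.0089, 0 passed in limma, and 0 of the 12 fitted passed in limma-voom. At an unadjusted p under 0.05 in limma there were 2 (15.4%, against 13.3% of all genes tested). Nrf1 averaged 2.11 ± 0.142 FPKM with AQP4-IgG, against 2.00 ± 0.0610 FPKM with Control-IgG. Gabpa, the DNA-binding subunit of GABP, averaged 14.5 ± 0.418 FPKM with AQP4-IgG, against 14.2 ± 0.828 FPKM with Control-IgG. Its partner Gabpb1 had 2.53, 2.64 and 2.39 FPKM with AQP4-IgG, against 2.92, 3.10 and 2.91 FPKM with Control-IgG, groups that were apart (log2 fold change -0.18, limma adjusted p = 0.27). Ppargc1a, the coactivator PGC-1alpha, averaged 5.41 ± 0.256 FPKM with AQP4-IgG, against 5.61 ± 0.172 FPKM with Control-IgG. Hif1a, the hypoxia-inducible factor, had 25.5, 25.2 and 24.8 FPKM with AQP4-IgG, against 23.5, 21.8 and 21.8 FPKM with Control-IgG (a log2 fold change of 0.16, limma adjusted p = 0.121). These regulators were picked for their known roles or, in the case of Gabpb1 and Hif1a, after their values were seen.

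Among cell type markers, some passed the test alongside Ndufa1. Log2 fold changes had mixed signs in the astrocyte list (7 positive, 3 negative) and were mostly negative in the myeloid list (1 positive, 7 negative). Of the 10 astrocyte markers 3 were higher with AQP4-IgG, where 1.46% of all genes tested were. They were Aqp4, the antibody's target (log2 fold change 0.33, limma adjusted p = 0.0216), and the glutamate transporters Slc1a3 (0.32, limma adjusted p = 0.0304) and Slc1a2 (0.35, limma adjusted p = 0.0464). In limma-voom, which left out Aqp4, both transporters passed as well as Aldh1l1 (limma adjusted p = 0.0637). The list had a median of 0.12, and its summed level, given above, overlapped between the groups. Of the 8 microglia and macrophage markers 1 was lower, where 0.632% of all genes tested were. It was the fractalkine receptor Cx3cr1 (log2 fold change -0.51, limma adjusted p = 0.0427). The integrin Itgam had 5.08, 4.33 and 4.66 FPKM with AQP4-IgG, against 3.89, 3.20 and 3.26 FPKM with Control-IgG, groups that were apart (log2 fold change 0.36, limma adjusted p = 0.0707). Itgam passed in limma-voom, as did Cx3cr1, and was the 1 marker of the list with a positive log2 fold change. Csf1r averaged 23.4 ± 1.71 FPKM with AQP4-IgG, against 28.1 ± 3.44 FPKM with Control-IgG. Its groups were apart, but it did not pass (log2 fold change -0.25, limma adjusted p = 0.247). The median of the myeloid list was -0.055, and its sum, set by Lyz2, overlapped.

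The 6 fibroblast and mural markers summed to 2037 to 2377 FPKM in AQP4-IgG libraries and 2681 to 2940.2 FPKM in Control-IgG libraries, but nearly all of that sum was the smooth-muscle actin Acta2, the member of the list that was lower (log2 fold change -0.38, limma adjusted p = 0.0243). Col1a1, Col1a2, Col3a1 and Pdgfrb overlapped between the groups, with log2 fold changes of -0.05, 0.04, 0.09 and -0.0027, and smooth-muscle Myh11, at 0.754 FPKM with AQP4-IgG, against 1.42 FPKM with Control-IgG, did not pass in limma (adjusted p = 0.136) but did in limma-voom. The median of these 6 was -0.026. The 4 oligodendrocyte-lineage markers listed of 6 summed to 195 to 212 FPKM in AQP4-IgG libraries and 223 to 234 FPKM in Control-IgG libraries, nearly all of it Olig1 and Olig2, which did not pass. The 2 tested genes of this list had log2 fold changes of -0.17 and -0.14, with groups apart. Pdgfra and Mog were not among the genes listed. The 1 ependymal marker listed of 3, Foxj1, had 40.9 to 46.7 FPKM in AQP4-IgG libraries and 34.4 to 39.0 FPKM in Control-IgG libraries (limma adjusted p = 0.0803), and passed in limma-voom. The 2 endothelial markers listed of 4 summed to 4.07 to 4.20 FPKM in AQP4-IgG libraries and 3.31 to 3.83 FPKM in Control-IgG libraries. The 2 neuronal markers listed of 5 summed to 40.5 to 43.7 FPKM in AQP4-IgG libraries and 40.8 to 44.3 FPKM in Control-IgG libraries and overlapped. Of the listed markers 0 stood at 0, which the limit for listing, a larger group mean of at least 0.5 FPKM, sets in advance. The part of cell composition in the difference in Ndufa1 was not tested.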

How the data were processed

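RNA was sequenced from 3 AQP4-IgG and 3 Control-IgG libraries of mouse primary astrocytes, prepared with a SMARTer mRNA kit per the labels' protocols. The builds GRCm38 and mm10 are named in the submitters' processing notes; for the aligner, counter and strand setting, nothing is given in the sources used here. The authors deposited 1 table with FPKM per gene and library, a unit inferred from the values, listing genes whose larger group mean was at least 0.5 FPKM. The control columns match the labels by name; the other 3 columns, named for the disease, were taken as AQP4-IgG because the design has 2 groups. The table also holds the authors' own log2 fold changes and p-values, as deposited.

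From these values limma 3.58.1 in R 4.3.3 was fitted on log2(FPKM + 1), with trend and robust variance, on the 12334 genes averaging 1 FPKM or more, and p-values were adjusted by Benjamini-Hochberg over all of them with a threshold of 0.05. The log2 fold changes therefore understate changes of low genes. Whole reads were recovered as FPKM times GENCODE M21 exon length for 13306 genes with equal coordinates, 80 of them members; within 0.1 reads, 99.0% to 99.1% of values under 200 reads were whole. Libraries of a group differed beyond sampling noise (chi-square per gene 4.05 to 7.59). The scripts were tested on simulated data. Sequence sharing was counted as 50-base stretches of a member's protein-coding transcripts found in transcripts of another gene. Promoter windows came from RefSeq.

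The members, lists and named genes were chosen with earlier results of these data known. Genes named were all members past the threshold, in each complex the most abundant member, that with the smallest p and those with the highest and lowest fold change, and fixed representatives and isoform pairs; others are marked where they appear, except those listed by a count. Alternatives were other pseudocounts, filters, scalings and variance settings, a replicate block, limma-voom on recovered reads and leaving out each library. No exact permutation test of single genes was made, since its smallest p with 3 against 3 is 0.1. For 1 member of complex I, no value of its own is reported here; it is counted in the totals.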

Additional observations from a re-analysis of the deposited data

How the results depend on the processing

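Under 15 alternative settings, 493 of 506 values of the 34 tested named genes kept their side of the threshold and moved by less than their error, and 0 called values changed sign; 30 of 491 values that were not called had the other sign. The 1 member lower with AQP4-IgG, Ndufa1, became 0 without the trend and in limma-voom, and 0 to 1 with a library left out; the causes were not tested. With the replicate number as a block, 1 member was higher, Cox6b2 (adjusted p = 0.0388), and Ndufa1 stayed lower (adjusted p = 0.0142). The labels give no shared origin. Deviations of same-numbered libraries from their group means correlated at 0.20, 0.0089 and 0.20 for replicates 1, 2 and 3 over all genes. Over the members the values were 0.36, -0.011 and 0.32, against -0.38 to 0.15 for libraries of unlike number. Deviations from a mean of 3 libraries depend on each other, so these values cannot decide whether the numbers pair the libraries. The limma fit reported above had no block. Over all genes tested, the 180 higher became 392 with the block, 321 in limma-voom and 38 to 292 with a library left out, and the 78 lower became 215, 167 and 17 to 99, and 42 without the trend. The median log2 fold change of the assembly factors, -0.031, was 0.028 when a mean of 10 FPKM was required, -0.064 in limma-voom and -0.073 to 0.0070 with a library left out. Median scaling moved the median of all genes by -0.015. Genes near 1 FPKM rest on few reads, and 3 members were not tested. Members with many shared stretches depend on how reads were assigned.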
